A study of Mus musculus with 14 samples.

Results

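The 85 genes described here encode the protein parts of the cytosolic ribosome. They were chosen by symbol from 20626 genes, as Rpl or Rps followed by a number, with an optional a, x, y or l ending, plus Rplp0, Rplp1, Rplp2 and Rpsa. Of these, 53 belong to the large subunit and 32 to the small subunit. Symbols written otherwise, such as Fau, Rack1 and Rps27rt, fell outside the rule and are given only where a result turns on them.

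The cytosolic ribosome translates nearly all cellular mRNA, and its proteins are made in roughly matched amounts from genes scattered over the genome. Most of their mRNAs begin with a short pyrimidine tract, the TOP element, through which mTOR signalling controls their translation. In male meiosis the X chromosome is silenced, and autosomal copies such as Rpl10l are known to stand in for X-linked ribosomal protein genes in mouse spermatocytes.

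Polyadenylated RNA and the histone mark H3K36me3 were measured in germ cells taken from testes of adult C57BL/6J mice. Flow sorting with Hoechst and propidium iodide gave pachytene/diplotene spermatocytes (PD), still in prophase of meiosis, and the haploid round spermatids (RS) that they form. Mice were wild type (WT) or carried the genotype Setd2KO, in which the enzyme that places H3K36me3 is targeted. Each of the 4 groups had 2 RNA-seq libraries and 1 H3K36me3 peak list. Neither the deleted part of Setd2 nor a driver for the deletion is stated in the labels. They also do not tell whether both libraries of a group represent different animals, and the p-values below therefore measure a spread that may be technical.

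To show what the starts of these genes look like, stretches of 40 bases before and 10 bases from the annotated start are given for X-linked genes and their autosomal copies, for the most abundant member Rplp0, and for Rpl14 and Rps27, whose RNA or mark is described below. They are RefSeq sequences of build GRCm38.p6, read 5′ to 3′ on the gene's strand. Capitals mark runs of at least 7 pyrimidines that begin with C.
Rpl10 (chrX:74270776-74270825, plus strand): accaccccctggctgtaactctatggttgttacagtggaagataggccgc
Rpl10l (chr12:66284392-66284441, minus strand): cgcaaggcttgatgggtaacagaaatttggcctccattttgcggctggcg
Rpl39 (chrX:37085213-37085262, minus strand): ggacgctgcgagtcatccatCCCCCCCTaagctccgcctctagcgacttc
Rpl39l (chr16:10170188-10170237, plus strand): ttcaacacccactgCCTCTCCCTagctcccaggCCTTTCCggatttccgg
Rplp0 (chr5:115559427-115559476, plus strand): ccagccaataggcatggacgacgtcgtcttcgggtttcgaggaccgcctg
Rpl14 (chr9:120571477-120571526, plus strand): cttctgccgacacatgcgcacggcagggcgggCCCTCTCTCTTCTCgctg
Rps27 (chr3:90213639-90213688, minus strand): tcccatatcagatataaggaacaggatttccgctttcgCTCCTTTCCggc

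RefSeq promoter windows, which run from 250 bases before to 50 bases after a start, were matched by symbol for 65 of the 85 genes. A run of 7 pyrimidines beginning with C lay within 20 bases of a start, on the gene's strand, in 37 of their 77 windows (48.1%) and in 18.7% of all 32851 windows. A C at the annotated start itself followed by at least 4 pyrimidines was found in 14 of the 77 windows (18.2%) and in 2.51% of all. The ETS-type letters CCGGAA, on either strand anywhere in the window, were found in 36 of the 77 (46.8%) and in 14.9% of all. TATAAA, on either strand, was found in 10.4% of the windows and in 13.6% of all. In the stretches shown, Rpl14, Rps27, Rpl39 and Rpl39l carry a marked run and Rpl10, Rpl10l and Rplp0 carry none.

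RNA levels are in FPKM, a read count scaled to transcript length and library depth, so that genes can be compared with one another. Depth worked back from these values ranged from 50.8 to 84.9 megareads. For the targeted gene Setd2, the PD libraries read 21.2 and 19.1 FPKM (WT) and 21.03 and 21.4 (Setd2KO), and the RS libraries 5.24 and 5.58 (WT) and 12.1 and 8.67 (Setd2KO). Gene-level values cannot check a partial deletion, and genotypes are as labelled. The first PD WT library stood apart, with all genes together at 181915 FPKM against 219288 to 234791 in the other 7 libraries. Of the 74 ribosomal protein genes at 20 FPKM or more in PD WT, 72 were higher in the second library, by a median of 1.36-fold, and results that rest on this pair are given with and without it. Summed markers of both cell types were higher where the labels place them, and in RS the sums differed with genotype. The 12 round spermatid genes summed to 227 to 382 FPKM in the PD libraries, to 5511 and 5330 in RS of WT and to 2101 and 2292 in those of Setd2KO. The 12 spermatocyte genes summed to 654 to 843 FPKM in the PD libraries, to 232 and 222 in RS of WT and to 336 and 307 in those of Setd2KO. Not every spermatocyte gene followed its sum. Of 11 tested, 9 were called lower and 1 higher in RS WT than in PD WT, and 9 lower and 2 higher in Setd2KO. Syce3 stood at 21.2 and 33.1 FPKM in PD WT and at 63.1 and 56.9 in RS WT.

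Ribosomal protein genes made up a larger part of the RNA in spermatocytes than in round spermatids. In spermatocytes they held 4.00% and 4.32% of all FPKM (WT) and 4.73% and 4.70% (Setd2KO). In round spermatids they held 2.88% and 2.74% (WT) and 3.14% and 2.99% (Setd2KO). All 4 PD libraries lay above all 4 RS libraries, and within each cell type both Setd2KO libraries lay above both WT libraries. The large subunit supplied 2.42% to 2.83% of all FPKM in PD and 1.65% to 1.87% in RS, and the small subunit 1.58% to 1.89% and 1.10% to 1.27%.

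**Figure D1:**
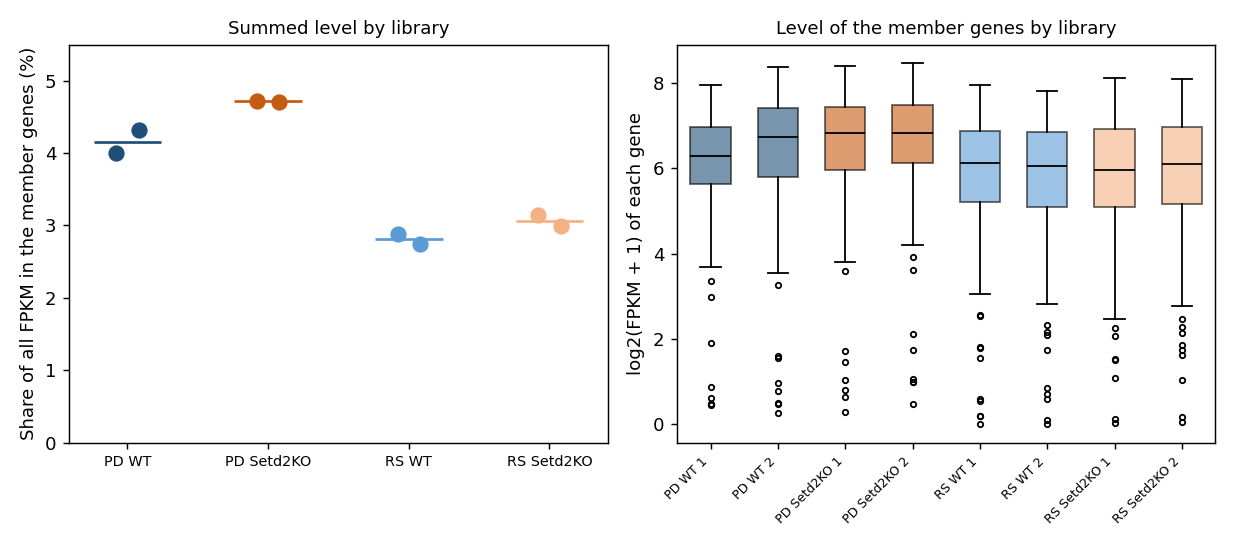
The left panel gives the share of all FPKM (%) held by the 85 genes in each of the 8 libraries (points) with group means (lines), and the right panel the spread of log2(FPKM + 1) over the 85 genes in each library (box, median and quartiles; whiskers to 1.5 times the box; points beyond). The PD libraries lie between 4.00% and 4.73% and the RS libraries between 2.74% and 3.14%.

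Levels of single genes spanned more than the subunits did. In PD WT, 74 genes reached 20 FPKM and 39 reached 100 FPKM, and 6 stayed under 5 FPKM. In RS WT the corresponding numbers were 69, 26 and 9. Highest was Rplp0, the base of the P stalk that recruits elongation factors, at 244 and 329 FPKM in PD WT and 199 and 215 in RS WT. Rps27, a zinc-binding protein of the small subunit, followed with 190.1 and 281 FPKM in PD WT and 235 and 202 in RS WT. Rps27 shares its place with the separately listed Rps27rt, whose values were nearly the same (191 and 282 FPKM in PD WT), so reads of these genes cannot be told apart. Rpl34 overlaps the separately listed Rpl34-ps1 on the same strand over 3493 bases, and how reads there were divided is not given in the sources used here. Rpl26, Rpl32 and Rps29 completed the top 5. Lowest were Rpl32l, at 0.0665 to 0.389 FPKM over the 8 libraries, and Rpl3l, the copy of Rpl3 known from muscle, at 0 to 1.08 FPKM. Neither reached a group mean of 1 FPKM, the minimum for testing, so 83 genes were tested. Many ribosomal protein genes have processed pseudogenes, and how reads shared with them were assigned is not given in the sources used here.

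Of the 4 X-linked members, the 3 with an autosomal copy in the tables stood far below that copy in every library. Rpl10 encodes a protein next to the peptidyl transferase centre, and Rpl10l is its retroposed autosomal copy. Rpl10 was at 2.73 and 2.02 FPKM in PD WT and, with Setd2KO, at 2.32 and 3.35. In round spermatids it was at 2.50 and 3.24 FPKM (WT) and 4.49 and 3.85 (Setd2KO). Rpl10l was at 102 and 126, 165 and 156, 94.8 and 92.02, and 151 and 137 FPKM in the same libraries. Rpl10l thus held 96.6% to 98.6% of the FPKM of the pair.

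Rpl39, which encodes a small protein lining the exit tunnel, was at 0.541 and 0.713 FPKM in PD WT and 0.515 and 0.499 in RS WT. Its copy Rpl39l was at 117 and 183 FPKM in PD WT and 143 and 140 in RS WT, and held 98.9% to 99.6% of the pair over the 8 libraries. Rpl36a was at 0.84 and 0.949 FPKM in PD WT and 0.457 and 0.644 in RS WT. Its copy Rpl36al was at 68.0 and 84.2 FPKM in PD WT and 69.0 and 59.96 in RS WT, and held 97.6% to 99.3%. In each pair the lowest autosomal value lay above the highest X-linked value. Rps4x, a small-subunit gene, was at 0.402 and 0.418 FPKM in PD WT and 0.145 and 0.809 in RS WT.

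**Figure D2:**
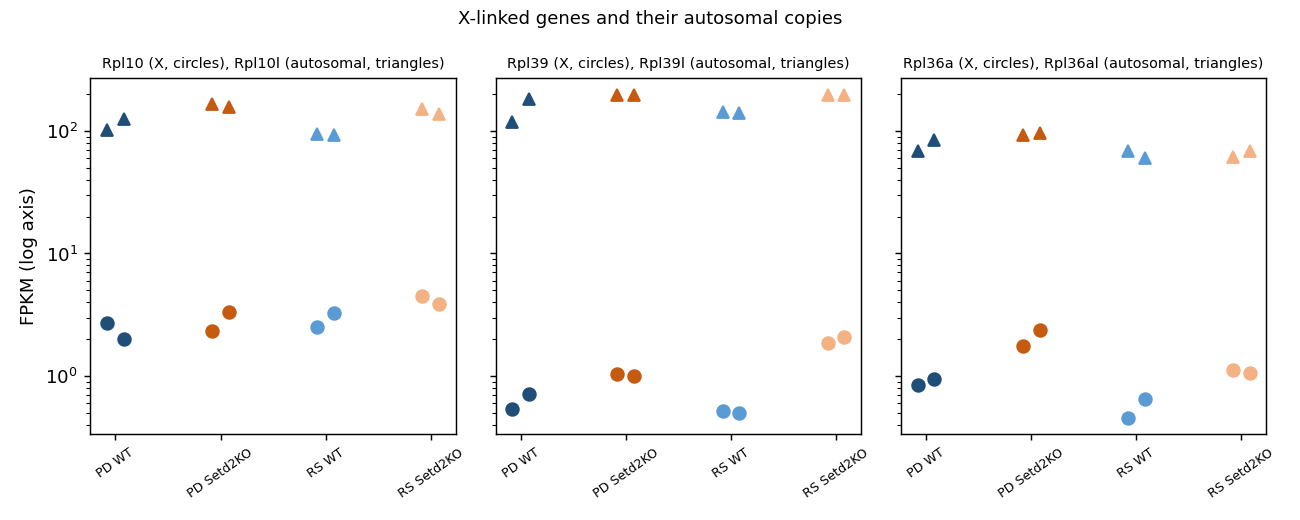
FPKM on a log axis for 3 X-linked genes (circles) and their autosomal copies (triangles), with 2 libraries in each of the 4 groups. The copies lie between 59.96 and 198 FPKM and the X-linked genes between 0.457 and 4.49 FPKM in every library.

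Most other X-linked genes were called higher after meiosis in WT, and these 4 were not. Of 358 other tested X-linked genes, 351 were called higher in RS WT than in PD WT, with a median log2 difference of 2.28. The 4 ribosomal protein genes differed by 0.20 (Rpl10, adjusted p = 0.265), 0.03 (Rps4x, 0.881), -0.11 (Rpl39, 0.271) and -0.29 (Rpl36a, 0.0282) in the limma fit over all genes. The call on Rpl36a was lost when either PD WT library or the first RS WT library was left out (adjusted p 0.0579 to 0.203), and with an upper-quartile scaling, equal library medians, no filter or no trend (0.0512 to 0.12). Rpl39, Rps4x and Rpl36a passed the minimum of 1 FPKM only through Setd2KO groups, and their counts in WT were small: 11 to 19 reads a library for Rpl39, 12 to 40 for Rps4x and 16 to 24 for Rpl36a.

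Other copies followed no single pattern. Rpl22l1 held 79.4% to 92.6% of its pair with Rpl22, standing at 30.0 and 46.9 FPKM in PD WT and 47.6 and 44.5 in RS WT, where Rpl22 was at 6.87 and 8.55 and then 4.77 and 4.00 FPKM. Rps27l, known as a p53-responsive copy of Rps27, held 9.62% to 18.7% of its pair. Rpl7l1 held 2.90% to 8.41% of its pair with Rpl7, and Rpl3l at most 1.53% of its pair with Rpl3.

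The step from spermatocyte to round spermatid asks which of these RNAs were lower after meiosis. In WT, 38 of the 83 tested genes were called lower in RS and 0 higher, beside 46.7% of all 11452 tested genes called lower and 36% called higher (limma on log2(FPKM + 1), Benjamini-Hochberg adjusted p under 0.05). The share of genes called lower, 38 of 83, was thus near that of all genes. Their median log2 difference was -0.37, and that of all tested genes was -0.21, so the genes lay 0.16 below. At an upper-quartile scaling 6 were called higher. Fewer cells of a type and less RNA per cell cannot be told apart in such bulk samples. Without the first PD WT library the count was 67 lower, and without the second it was 33 lower and 6 higher.

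The differences were very unequal between genes. Rpl10a, which forms the mobile L1 stalk of the large subunit, stood at 49.9 and 54.5 FPKM in PD WT and at 4.88 and 3.46 in RS WT. In Setd2KO it stood at 66.2 and 69.2 FPKM in PD and 3.80 and 3.41 in RS. The RS mean was 12.5-fold lower in WT and 18.8-fold lower in Setd2KO, with log2 differences of -3.38 ± 0.15 (SE) and -3.90 ± 0.15 and adjusted p of 4.03e-09 and 5.67e-09.

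Rpl14, a large-subunit protein, stood in PD at 49.3 and 60.1 FPKM (WT) and 74.1 and 77.7 (Setd2KO), and in RS at 7.34 and 6.10 (WT) and 6.86 and 5.85 (Setd2KO). Its RS mean was 8.14-fold and 11.9-fold lower (adjusted p 9.79e-09 and 1.06e-08). Every RS library of both genes lay below every PD library, and both calls held under all alternatives, with adjusted p of at most 2.39e-05.

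Rps27a encodes ubiquitin fused to a small-subunit protein. It stood at 110 and 149 FPKM in PD WT and 28.9 and 26.8 in RS WT, a log2 difference of -2.16 (adjusted p = 1.99e-07). Rps3, whose protein lines the mRNA entry channel, stood at 32.9 and 42.2 FPKM in PD WT and 11.4 and 7.89 in RS WT (-1.87, adjusted p = 1.10e-06). Rpl7l1 was the only copy among the 5 largest differences, at 9.20 and 10.6 FPKM in PD WT and 2.44 and 2.36 in RS WT (-1.68, adjusted p = 1.56e-07). Rpl15, Rpl4, Rpl9, Rpl5, Rps15 and Rpl7a also fell by more than 1 on the log2 scale.

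The P stalk genes differed less than these, with Rplp0 and Rplp1 below the median of -0.37 over the 83 genes and Rplp2 above it. Rplp0 was called lower in RS WT (-0.45, adjusted p = 0.032), as was Rplp1 at 120 and 169 FPKM in PD WT and 97.2 and 94.6 in RS WT (-0.57, adjusted p = 0.0112). Rplp2, its dimer partner, stood at 73.2 and 105 FPKM in PD WT and 79.0 and 80.1 in RS WT (-0.14, adjusted p = 0.464). The call on Rplp0 was lost under 9 alternatives, among them no filter, upper-quartile scaling and leaving out any 1 library other than the PD WT ones (adjusted p 0.0702 to 0.172). Rplp1 was lost in a fit of the compared groups (0.063) and without the second RS WT library (0.0577), and Rplp2 was called lower without the first PD WT library (0.00292) and with quantile normalization (0.00169). Rpsa, a small-subunit protein also known as a laminin receptor, stood at 40.3 and 53.1 and then 34.2 and 27.7 FPKM (-0.57, adjusted p = 0.00836, and 0.086 without the second RS WT library). At the other end, Rpl22l1 had the highest difference of the 83 genes, 0.29 (adjusted p = 0.174). It was called higher at 0.60 without the second PD WT library (0.0009) and at 0.52 with an upper-quartile scaling (0.00838).

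In Setd2KO, 59 of 83 genes were called lower in RS than in PD and 3 higher, beside 48.5% and 34.2% of all tested genes. Their median log2 difference was -0.61, beside -0.27 over all genes. With library medians set equal, 39 were called lower, and with an upper-quartile scaling 33. All 38 genes called lower in WT were among these 59 (100% of the first list and 64.4% of the second). Of all tested genes 46.7% were called lower in WT, and this overlap is not shown to be particular to the ribosomal protein genes. The comparisons share no library, but the fit over all 8 libraries gives each gene the same spread in both. The overlap over all tested genes was not counted. Over the 79 tested autosomal genes the RS minus PD difference in WT and in Setd2KO had r = 0.963 and rho = 0.922, across genes that share each library's depth and scaling.

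The 3 genes called higher were X-linked: Rps4x (0.82, adjusted p = 0.00131), Rpl39 (0.56, adjusted p = 0.000101) and Rpl10 (0.44, adjusted p = 0.0241). Rps4x and Rpl39 were tested only through Setd2KO groups, and of the other 80 genes 1 was called higher and 58 lower. The Rpl10 call was lost without the first library of either Setd2KO group (adjusted p 0.222 and 0.125) and with no filter (0.0635). Among the other X-linked genes, 354 of 358 were called higher in this comparison, with a median of 1.89.

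**Figure D3:**
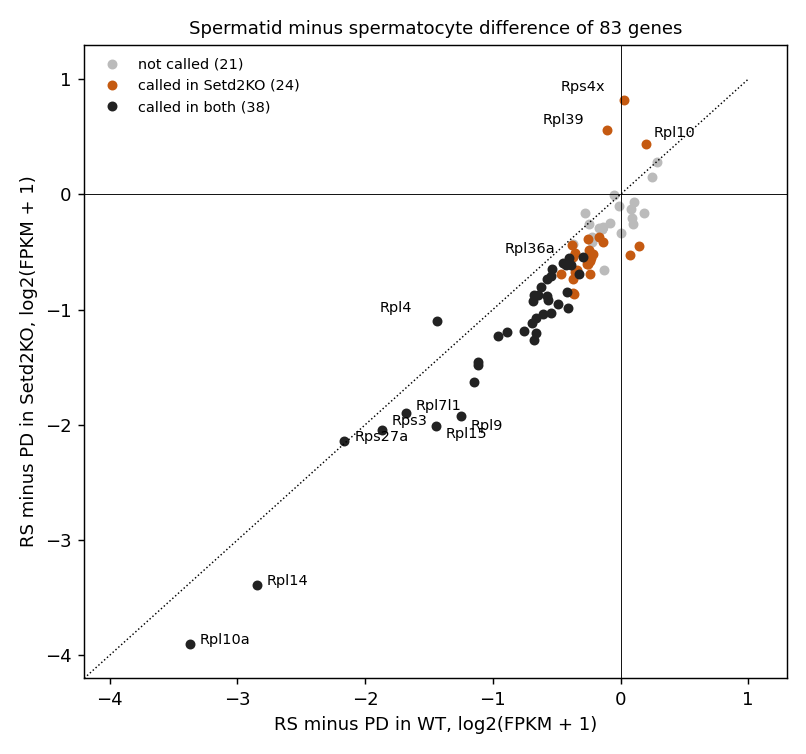
RS minus PD difference on the log2(FPKM + 1) scale in WT (horizontal) and in Setd2KO (vertical) for the 83 tested genes; the dotted line marks equal differences and colours give the limma calls. Rpl10a and Rpl14 lie lowest on both axes, and Rps4x, Rpl39 and Rpl10 are the genes called higher in Setd2KO.

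The size of the difference varied with transcript length, which the choice of genes did not use. Across the 79 tested autosomal genes, length and the RS minus PD difference in WT had rho = -0.507 (r = -0.354), and in Setd2KO rho = -0.466. The 27 shortest transcripts, 285 to 573 bases, had a median log2 difference of -0.22 in WT, with 6 called lower. The 26 longest, 867 to 5134 bases, had a median of -0.54, with 17 called lower. These points share their libraries, and the lengths are those that fit the deposited FPKM values. The subunits were alike, with medians of -0.37 over 51 large-subunit and -0.37 over 32 small-subunit genes.

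Genes that build or regulate ribosomes were read beside them, where 46.7% of all tested genes were called lower in RS WT and 36% higher. In RS WT, 31 of 45 tested ribosome biogenesis genes were called lower than in PD WT and 4 higher, with a median of -0.75. Emg1, a ribosomal RNA methyltransferase, stood at 24.9 and 32.6 FPKM in PD WT and 8.08 and 6.12 in RS WT. Of 12 RNA polymerase I genes 10 were called lower and 1 higher (median -0.97), among them the initiation factor Rrn3 at 7.44 and 8.85 and then 1.19 and 1.31 FPKM. Of 36 initiation factors 19 were called lower and 8 higher, of 12 mTOR and TOP control genes 8 lower and 2 higher, and of 12 elongation factors and other TOP mRNAs 3 lower and 4 higher. Eef1d, a guanine exchange factor for elongation, stood at 17.8 and 23.4 FPKM in PD WT and 109 and 104 in RS WT.

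Some ribosomal proteins named otherwise behaved differently from one another. Rack1, the small-subunit scaffold protein, stood at 58.0 and 78.7 FPKM in PD WT and 10.7 and 9.88 in RS WT (-2.60, called lower). Fau stood at 92.8 and 124 and then 110 and 99.1 FPKM (-0.04, adjusted p = 0.831).

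The comparison of Setd2KO with WT in spermatocytes asks which of these RNAs differ with the loss of Setd2. In PD, 12 of 83 genes were called higher in Setd2KO and 0 lower, beside 29.8% and 6.3% of all tested genes. The share called higher, 12 of 83, was below that of all genes. Their median log2 difference was 0.32 and that of all tested genes 0.19, a shift of all genes that the relative values below subtract. The count rested on the PD WT pair: it was 8 without the first library (with 2 called lower) and 68 without the second, and 3 to 5 without either Setd2KO library. With library medians set equal it was 4, namely Rpl29, Rps26, Rps27l and Rpl36a, of which Rpl36a was tested only through Setd2KO groups.

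Rpl29, a large-subunit protein, gave the largest difference that passed the test in PD and one of the larger differences in RS. The gene stood at 11.8 and 20.0 FPKM in PD WT and at 40.7 and 41.3 in PD Setd2KO. The RS values were 11.6 and 11.7 FPKM (WT) and 23.0 and 25.5 (Setd2KO). All 4 Setd2KO libraries lay above all 4 WT libraries. The log2 difference was 1.36 ± 0.20 (SE) in PD (1.17 relative to all genes, adjusted p = 0.000789) and 0.99 ± 0.20 in RS (adjusted p = 0.00227), or 2.58-fold and 2.07-fold by group means. Both calls held under all alternatives, with adjusted p of at most 0.00824 in PD and 0.0221 in RS. H3K36me3 peaks covered 83.5% of Rpl29 in the PD WT list and 70.2% in RS WT.

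Rps26, a small-subunit protein at the mRNA exit channel, stood at 76.3 and 69.2 FPKM in PD WT and 125 and 126 in PD Setd2KO (0.79, relative 0.59, adjusted p = 0.00303). The RS libraries read 72.6 and 89.3 FPKM (WT) and 89.7 and 94.5 (Setd2KO), a difference of 0.19 (adjusted p = 0.335, and 0.0491 with an upper-quartile scaling). Rps29, a zinc-binding small-subunit protein, stood at 173 and 139 FPKM in PD WT and 248 and 244 in PD Setd2KO (0.66, relative 0.47, adjusted p = 0.0231). Its PD call was lost without the second PD WT library or without either PD Setd2KO library (adjusted p 0.0699 to 0.116), and with quantile normalization, equal library medians, no filter or a fit of the compared groups (0.0683 to 0.109). Rps27l stood at 30.0 and 43.4 FPKM in PD WT and 57.2 and 58.5 in PD Setd2KO (0.67, relative 0.48, adjusted p = 0.012), a call lost without either Setd2KO library (0.0526 and 0.0623).

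Rpl36a, X-linked, was at 1.75 and 2.36 FPKM in PD Setd2KO, above both PD WT libraries (0.68, relative 0.49, adjusted p = 0.00121). Rpl36a and Rpl39 passed the minimum of 1 FPKM only through Setd2KO groups, in which they are high, so their p-values here are no support. Rps9, Rpl35, Rpl10l, Rpl22, Rpl14, Rpl7l1 and Rpl39 were the other genes called higher, at 0.31 to 0.64. The Rpl7l1 call was lost under 6 alternatives (0.0629 to 0.247) and the Rpl22 call under 4 (0.0617 to 0.12), both without the first PD WT library, without either Setd2KO library and with equal library medians. For Rpl39, at 1.04 and 0.996 FPKM in PD Setd2KO, the difference was 0.31 (relative 0.12, adjusted p = 0.0186), and quantile normalization turned it to -0.04. Its call was also lost with equal library medians (0.449) and without the first PD WT library or either Setd2KO library (0.0603 to 0.0924). The sum of 12 spermatogonial markers moved with this comparison, from 26.5 and 29.3 FPKM in PD WT to 45.6 and 55.8 in PD Setd2KO. Most of it was Id4, at 18.9 and 21.1 FPKM (WT) and 31.9 and 35.9 (Setd2KO). Of the 6 tested spermatogonial markers 4 were called higher and 0 lower. Nanos3 lay the other way, at 0.67 and 0.689 FPKM (WT) and 0.531 and 0.395 (Setd2KO). Of 12 round spermatid markers 7 were called higher and 3 lower (median 0.88), although their sum was 357 and 382 FPKM in PD WT and 327 and 227 in PD Setd2KO, and of 11 tested spermatocyte markers 5 were called higher and 1 lower (median 0.38). The part of these markers' cells in the ribosomal protein differences was not tested.

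In round spermatids, 8 of 83 genes were called higher in Setd2KO and 1 lower, beside 20.9% and 21.8% of all tested genes. The median log2 difference was 0.07, beside 0.02 over all genes. Stage markers moved with this comparison: of 12 round spermatid markers 0 were called higher and 5 lower (median -0.61), and of 11 tested spermatocyte markers 4 were called higher and 2 lower (median 0.17), with Hormad1 at 26.6 and 20.1 FPKM in Setd2KO and 9.48 and 8.15 in WT. Their part in the ribosomal protein values was not tested. Of the 8, 6 were among the 12 called higher in PD: Rpl10l, Rpl29, Rpl36a, Rpl39, Rps27l and Rps29 (50% of the PD list and 75% of the RS list). This overlap is not shown to be particular to the ribosomal protein genes. The comparisons share no library, but the fit over all 8 libraries gives each gene the same spread in both. The overlap over all tested genes was not counted. Without the 3 genes tested through Setd2KO groups only, 10 of 80 were called higher in PD and 5 of 80 in RS, and 4 were in both lists (Rpl10l, Rpl29, Rps27l and Rps29). Leaving out 1 library gave 3 to 21 called higher and 0 to 7 lower, the lowest count without the first RS WT library and the highest without either PD WT library, which left the differences as they were and changed the shared spread.

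In RS the copy Rpl10l had 94.8 and 92.02 FPKM (WT) and 151 and 137 (Setd2KO), a difference of 0.62 (adjusted p = 0.00883). The call was lost without either RS WT library or the first RS Setd2KO library (0.0508 to 0.0947). In PD its difference was 0.50 (relative 0.31, adjusted p = 0.0287), lost without either PD Setd2KO library or without any 1 RS library (0.0504 to 0.185), and with equal library medians, no filter or a fit of the compared groups (0.0504 to 0.129). Rpl39l had 143 and 140 FPKM (WT) and 197 and 196 (Setd2KO), a difference of 0.47 (adjusted p = 0.0745). It was called under 6 alternatives, namely the 3 other scalings, a fit of the compared groups and leaving out either PD WT library (0.000851 to 0.0247). Both copies were higher in both Setd2KO libraries of each cell type than in both WT libraries. The same held for 62 of the 85 genes in PD and for 38 in RS, while 0 and 17 lay below both WT libraries. The share over all genes was not counted, so these counts are not shown to be particular to the ribosomal protein genes.

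Rps29 reached 153 and 223 FPKM in RS of WT and 274 and 271 in those of Setd2KO (0.56, adjusted p = 0.0392), and Rps27l at 25.0 and 22.7 and then 33.3 and 35.6 FPKM (0.51, adjusted p = 0.0323). The Rps29 call failed without any 1 RS library but the second WT one, without either PD Setd2KO library, and with quantile normalization or no filter (adjusted p 0.0594 to 0.357). The Rps27l call failed without any 1 RS library and with no filter (0.052 to 0.158). Rpl4, a large-subunit protein reaching into the exit tunnel, had RS values of 57.1 and 54.7 FPKM (WT) and 85.0 and 80.8 (Setd2KO), with a difference of 0.56 (adjusted p = 0.0181, and 0.0686 to 0.123 without any 1 RS library). Rpl13a, known also for silencing inflammatory transcripts, was the gene called lower, with RS values of 68.8 and 64.7 FPKM (WT) and 47.0 and 42.7 (Setd2KO), a difference of -0.56 (adjusted p = 0.0326). Its call was lost when any 1 RS library was left out (0.0909 to 0.154) and with no filter (0.0601).

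**Figure D4:**
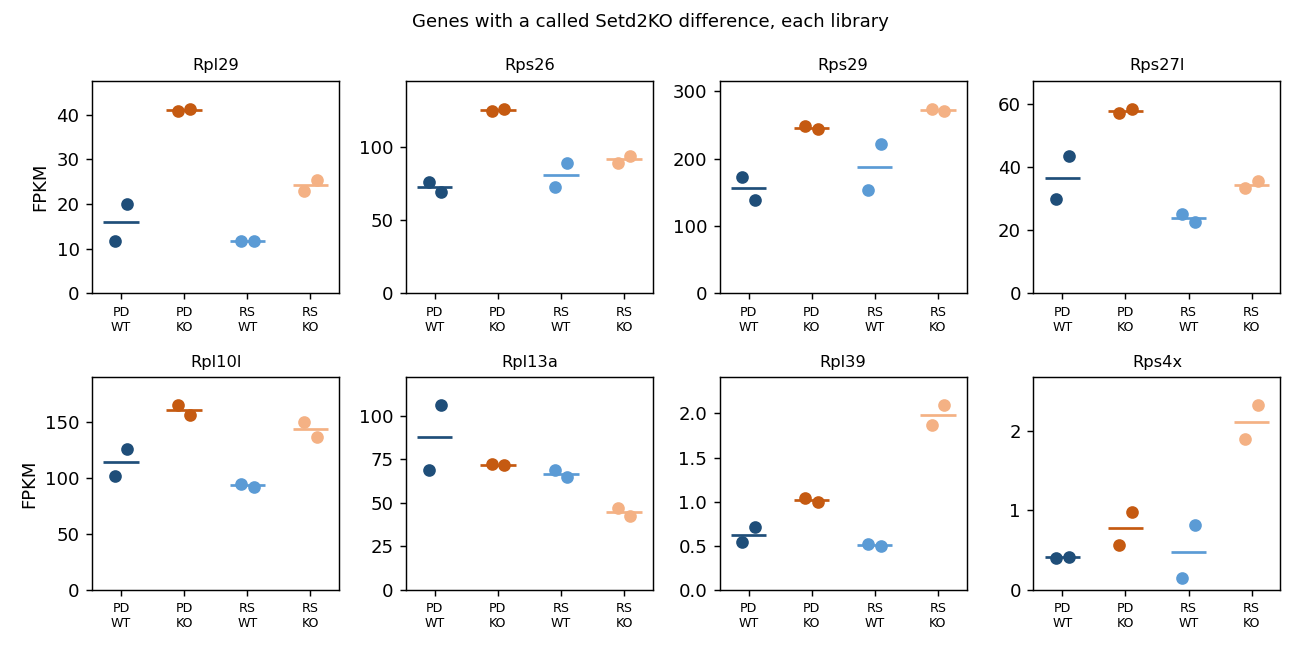
FPKM of 8 genes called in at least 1 Setd2KO comparison, with 2 libraries (points) and the mean (line) in each group; KO stands for Setd2KO and every vertical axis starts at 0. For Rpl29 both Setd2KO libraries of each cell type lie above both WT libraries, and Rpl39 and Rps4x are highest in RS Setd2KO, at 1.87 to 2.32 FPKM.

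Rpl39 and Rps4x were the 2 of 83 genes whose Setd2KO difference was called larger in RS than in PD, and 0 were called smaller, beside 7.76% and 27.3% of all tested genes. Both genes passed the minimum of 1 FPKM only through Setd2KO groups, in which they are high, so their p-values are no support, and of the other 80 genes 0 were called larger or smaller. Rpl39 stood at 1.87 and 2.09 FPKM in RS Setd2KO, on 47 and 60 reads, above the 0.515 and 0.499 of RS WT (0.98 ± 0.09 SE, adjusted p = 1.39e-05). Rps4x stood at 1.90 and 2.32 FPKM in RS Setd2KO, on 107 and 149 reads, above the 0.145 and 0.809 of RS WT (1.11 ± 0.18, adjusted p = 0.000683). In PD the Rps4x values were 0.402 and 0.418 FPKM (WT) and 0.565 and 0.978 (Setd2KO), a difference of 0.32 (adjusted p = 0.188). The test of its larger RS difference (adjusted p = 0.0337) was lost without the first RS WT library, the second RS Setd2KO library or any PD library but the second Setd2KO one (0.0835 to 0.12), and with a pseudocount of 0.1, no filter or no intensity trend (0.061 to 0.12). Some markers of other testis cells moved with these genes. The 10 Sertoli genes summed to 5.71 and 8.02 FPKM in RS of WT and to 18.8 and 16.3 in those of Setd2KO. The 8 peritubular and stromal genes summed to 2.68 and 5.11 and then 18.4 and 18.7 FPKM. Leydig genes summed to 9.69 and 5.13 and then 10.4 and 14.7 FPKM, with 1 of 3 tested called higher. Macrophage genes summed to 3.09 and 5.25 and then 5.12 and 3.83 FPKM, so that the genotypes overlapped. Of 2 tested macrophage genes 0 were called higher and 1 lower. Sums of erythrocyte and endothelial genes also overlapped. All 4 tested Sertoli and all 5 tested stromal markers were called higher in RS Setd2KO. Of the Sertoli genes at low levels, Sox9 was at 0.0398 and 0.0427 FPKM in RS of WT and 0.116 and 0.157 in those of Setd2KO. Fshr was at 0.00998 and 0.0333 and then 0.0876 and 0.0385 FPKM, so that the genotypes nearly touched. Amh did not move, at 0.0778 and 0.0591 and then 0.0621 and 0.0637 FPKM. The part of such cells in the Rpl39 and Rps4x values was not tested.

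Ribosome-related genes outside the family were called in both directions in RS. Of 45 ribosome biogenesis genes 19 were called higher in PD Setd2KO and 0 lower, and 12 higher and 5 lower in RS Setd2KO. Nmd3, the export adaptor of the large subunit, stood in PD at 14.3 and 10.3 FPKM (WT) and 24.5 and 24.6 (Setd2KO), and in RS at 6.04 and 8.80 (WT) and 18.8 and 17.0 (Setd2KO). Nop2, a ribosomal RNA methyltransferase, was lower, with RS values of 10.9 and 9.55 FPKM (WT) and 3.36 and 3.44 (Setd2KO). Of the initiation factors 11 of 36 were called higher in PD and 0 lower, and 7 higher and 4 lower in RS. Their counts called higher were near the shares of all genes. The elongation and TOP list gave 4 higher of 12 in PD, and 1 higher and 3 lower in RS. For RNA polymerase I the counts were 4 higher of 12 in PD, and 3 higher and 3 lower in RS. The mTOR and TOP control list gave 2 higher of 12 in PD, and 1 higher and 1 lower in RS. Pabpc1, the poly(A)-binding protein whose mRNA is itself a TOP mRNA, stood at 203 and 162 FPKM in PD WT and 367 and 322 in PD Setd2KO.

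The peak lists show where H3K36me3 lay over these genes. Genes with at least 1 base under a peak numbered 78 of 85 in PD WT (91.8%) and 79 of 85 in RS WT (92.9%). In both Setd2KO lists the number was 0 of 85, which allows a share of up to 4.25% (exact 95% binomial interval, counting error only). Over all other autosomal genes the shares were 46.2% in PD WT, 44.8% in RS WT, 2.03% in PD Setd2KO and 5.46% in RS Setd2KO. Among the other autosomal genes of at least 20 FPKM and 1000 to 6000 bases, 4 of 430 (0.93%) had a peak in PD Setd2KO and 0 of 478 in RS Setd2KO. With 1 list a group there is no replicate check. The 4 X-linked genes had no peak in any list.

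At like expression levels the shares were closer in PD than in RS. Among autosomal genes of at least 20 FPKM in PD WT, 72 of 74 ribosomal protein genes (97.3%) and 96.1% of 2284 others had a peak. In RS WT the shares were 68 of 69 (98.6%, interval 92.2 to 100) and 77.0% of 2434 others (75.2 to 78.6). Among genes of 1000 to 6000 bases at that level they were 66 of 67 (98.5%) and 70.6% of 534 others in RS WT.

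Peaks lay over the bodies of these short genes and covered their beginnings least. Peaks overlay a median of 81.7% of the gene in the PD WT list and 79.1% in the RS WT list, and 4 and 11 genes were covered whole. With each gene cut into 5 equal bins, the mean cover of the 81 autosomal genes in the PD WT list was 29.2% in the bin at the 5′ end, 78.2% in the next, then 86.8%, 91.6% and 92.7%. In RS WT it was 33.4%, 69.4%, 78.9%, 83.4% and 89.2%. Limited to at least 20 FPKM and 1000 to 6000 bases, 71 ribosomal protein genes had 28.1% in the first bin and 97% in the last in PD WT, and 420 other genes had 55.1% and 89.4%. In RS WT, 67 ribosomal protein genes had 30.2% and 92.2%, and 534 other genes had 47.8% and 62.7%. The first bin of the ribosomal protein genes was thus less covered, and the last more covered, than in other genes within these limits in both lists. Genes with no peak are included. In RS WT 66 of 67 ribosomal protein genes and 377 of 534 others had a peak, and in PD WT 70 of 71 and 400 of 420. The gap in the last bin thus includes the difference in the share with a peak. These means come from 1 list a cell type and carry no replicate error.

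**Figure D5:**
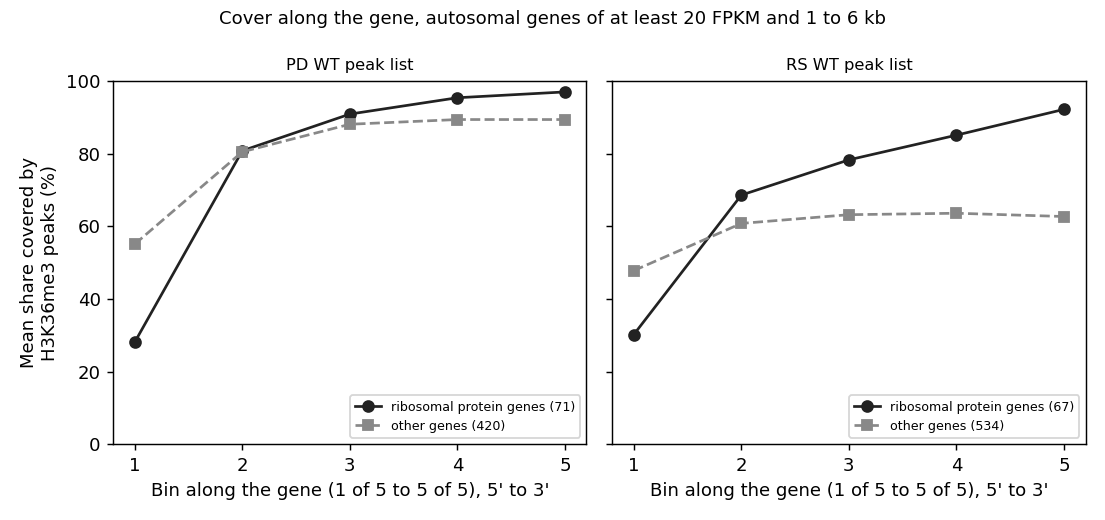
Mean share of each of 5 equal bins along the gene (the first at the 5′ end) that lies under H3K36me3 peaks, in the PD WT list (left) and the RS WT list (right), for ribosomal protein genes and other autosomal genes, both of at least 20 FPKM and 1 to 6 kb. Cover of the ribosomal protein genes goes from 28.1% to 97% in PD WT and from 30.2% to 92.2% in RS WT.

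Single genes departed from this. The longest cover was over Rps15a in both lists, 11680 bases in PD WT and 11361 in RS WT, followed by Rpl7l1, Rpl5, Rpl22 and Rps3 among the 5 longest. Rps13 was covered whole in PD WT and had no cover in RS WT, while its RNA stood at 109 and 155 FPKM in PD WT and 113 and 107 in RS WT. Rps27 had no cover in PD WT and was covered whole in RS WT, with RNA at similar levels. Rplp1 had none in PD WT and 2.85% in RS WT, and Rpl32l had none in either. Rpl10a and Rpl14, whose RNA was lowest relative to PD in round spermatids, kept cover over 61.9% and 73.8% of their length in RS WT, beside 89.3% and 80.7% in PD WT. Of the autosomal copies, Rpl39l was covered whole in both lists, Rpl10l over 51.5% and 29.7%, and Rpl36al over 10.9% in PD WT and 96.4% in RS WT.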

How the data were processed

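Per the labels, polyadenylated RNA was sequenced. The authors deposited FPKM values, made with TopHat2, Cufflinks and Cuffdiff against mm9 per the submitters' processing notes, and 1 H3K36me3 peak list per sample with a deposited score for each peak. Chromatin for a spike-in is named in the protocol; whether lists were scaled by it is not given in the sources used here. Depth and read numbers were worked back from the FPKM steps. Genes with a group mean of at least 1 FPKM were fitted as log2(FPKM + 1) with limma 3.58.1 (R 4.3.3) with an intensity trend, 1 mean per group over all 8 libraries (4 residual and 6.92 prior degrees of freedom), two-sided, adjusted by Benjamini-Hochberg over all 11452 genes and called under 0.05. On simulated data the fit recovered 74 of 100 genes changed by 1 on the log2 scale and 17 of 100 changed by 0.5. Cover needed 1 base of overlap, with exact 95% intervals. Genes named were the X-linked members, copies and parents, the 5 largest called differences per direction with groups that do not overlap, the 5 highest and lowest levels, the P stalk genes and Rpsa, and genes with no or the longest cover; others are named where a count of few is spelled out, chosen after their values were seen. Members and lists were chosen with earlier results of these data known. Scaling, pseudocount, filter, intervals, samples in the fit, block, trend and single libraries were varied. RefSeq sequences were matched by symbol. Of the listed genes, Taf1a and Rhox5 had no match. Input libraries were not analysed here.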

Additional observations from a re-analysis of the deposited data

Results flagged for a closer look

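Rpl39, Rps4x and Setd2 were flagged by the test of the difference between the Setd2KO effects (RS effect minus PD effect, limma). For Rpl39 the difference was 0.67 on the log2(FPKM + 1) scale (adjusted p = 0.00234), and for Rps4x it was 0.79 (adjusted p = 0.0337, and 0.061 to 0.12 under the 8 alternatives that ended the call). Both rest on levels of at most 2.32 FPKM. Both genes passed the minimum only through Setd2KO groups, in which they are high, so their p-values are no support for a difference between cell types. For Setd2 it was 0.74 (adjusted p = 0.0211).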

How the results depend on the processing

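Counts in this paragraph are genes called higher or lower among the tested ribosomal protein genes, and medians are their log2 differences. Setd2KO against WT in PD gave 19 higher with quantile normalization, 4 with equal library medians (median 0.10) and 7 in a fit of the compared groups; leaving out 1 library gave 3 to 68 higher, 0 to 2 lower and medians of 0.12 to 0.51. In RS it gave 23 higher with upper-quartile scaling, 18 higher and 4 lower with quantile normalization, 3 lower with equal medians or no trend, 0 lower with no filter, and 4 lower in the compared groups; leaving out 1 library gave 3 to 21 higher and 0 to 7 lower. RS against PD in WT gave 6 higher with upper-quartile scaling (median -0.14) and 71 lower with quantile normalization (-0.63), and 0 to 6 higher, 24 to 67 lower and -0.61 to -0.15 without 1 library. In Setd2KO it gave 7 higher and 33 lower with upper-quartile scaling (-0.23), 5 and 39 with equal medians (-0.30), and 5 higher in the compared groups. The difference of the Setd2KO effects gave 1 higher with a pseudocount of 0.1, no filter or no trend, 3 lower with quantile normalization, 1 lower with no filter, 2 with no trend, 1 to 3 higher and 0 to 54 lower without 1 library, and a median turned to 0.022 by equal medians. Without the 5 highest genes the shares of FPKM were 3.60%, 4.09%, 2.37% and 2.56% in PD WT, PD Setd2KO, RS WT and RS Setd2KO, and 65 genes had at least 50% of their length covered in RS WT. Single values that turned were Rpl39l RS against PD in Setd2KO (0.42, upper quartile), in WT (0.27 without PD WT replicate 2) and its difference of effects (-0.27, likewise), and Rpl39 in PD (-0.038, quantile). Without PD WT replicate 1 these Rpl39l values kept their sign and were called (-0.37 and 0.36). Where not stated, the cause was not tested.

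Same-numbered libraries did not deviate together, with correlations of -0.31 to 0.07, so the numbers were not taken to pair the libraries. With the replicate number as a block, 11 genes were called higher in PD Setd2KO, and the Rps29 call in RS was lost (adjusted p = 0.0555). A crossed block, chosen after seeing the data, gave 15 there, 2 lower in RS and 3 lower for the difference of effects. Depth limits Rpl32l, at 2 to 16 reads a library, and the X-linked genes, at 11 to 207.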

Other observations

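Rps16, a small-subunit gene, was discordant within both WT groups. It was chosen after its values were seen. It stood at 32.7 and 1.95 FPKM in PD WT (1027 and 62 reads), 1.93 and 27.2 in RS WT (101 and 849 reads), 40.4 and 39.1 in PD Setd2KO, and 25.9 and 23.9 in RS Setd2KO. The low library was the second in PD WT and the first in RS WT. Its Setd2KO differences did not pass the test (2.03 in PD, adjusted p = 0.145, and 1.51 in RS, adjusted p = 0.261), although these were the largest of the 83 genes. Without the higher WT library they were 3.79 in PD and 3.14 in RS, but this leaves only the low WT value and is no support. The higher WT values, 32.7 FPKM in PD and 27.2 in RS, lay near the Setd2KO values. H3K36me3 covered 29.3% of Rps16 in PD WT and 5.77% in RS WT.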
